A study of Mus musculus with 6 samples.

Results

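Telomere maintenance was examined through 9 genes in bulk RNA-seq of mouse embryonic stem cells (mESCs) and of cardiac precursor cell cultures (CPCCs) grown from them. The genes were *Tert* and *Dkc1* of telomerase, *Terf1*, *Terf2*, *Tinf2*, *Acd* and *Pot1a* of shelterin, the end-protection gene *Rif1* and the helicase gene *Rtel1*. They were taken by gene symbol from the 2 deposited gene tables, which together list 16279 genes. All 9 are in both tables, and all 9 passed the filter on low counts that left 12471 genes to test. The mESCs were male F1 cells of a C57BL/6J x CAST/EiJ cross with a C57BL/6J mother, kept without feeder cells in 2i medium with LIF. Each of the 3 mESC lines was a clone grown from a single cell of a line from a different blastocyst, and each CPCC library came from a culture derived from such a clone. For CPCCs, the cells were aggregated in hanging drops, grown as embryoid bodies with ascorbic acid, and then enriched and passaged in medium with EGF and Fgf2, and the resulting cultures are mixtures of cell types. The study asked which genes the cardiac lineage expresses from a single parental allele, while the counts used here are not split by allele.

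Telomeres are the repeat-bearing ends of chromosomes, which shorten at each replication unless telomerase adds repeats. Telomerase is made of the reverse transcriptase encoded by *Tert*, an RNA template encoded by *Terc*, and the dyskerin complex that stabilizes that RNA. Shelterin coats the repeats and keeps the ends from being read as DNA breaks, and pluripotent cells are known for telomerase activity that most differentiated cells lack.

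Levels are given in CPM, the counts of a gene relative to the size of its library after scaling by trimmed mean of M-values (TMM). The tables call the mESC libraries S01 to S03 and the CPCC libraries S04 to S06, names kept here because no column could be matched to a replicate number or clone, and values are listed in that order. The mESC libraries held 6442639 to 6907330 counts and the CPCC libraries 8468819 to 11436062, so that 3 counts, taken as the floor, equal 0.298 to 0.463 CPM. The cell type labels were checked against marker genes. All 5 mESC markers fell in CPCCs, led by *Zfp42* (log2 fold change -5.55, and -6.29 without S06) and *Esrrb* (-5.37), and their summed level was 1604 to 2172 CPM in mESCs and 29.4, 96.6 and 132 CPM across S04 to S06. Of 10 cardiac progenitor markers, 5 were tested and 2 rose, *Fst* (5.25) and *Tnnt2* (5.01, and 4.04 without S04). Across all genes tested 31.7% rose. *Mef2c* and *Sox9* are only in the CPCC table, at least 31.3-fold and 52.9-fold higher than the floor of 3 counts per mESC library, as is *Kdr* (at least 7.46-fold). *Nkx2-5*, a defining cardiac factor, had 16, 0 and 8 counts across S04 to S06 and is not in the mESC table, and *Tbx5*, another, had 7, 0 and 4 counts across S01 to S03 and is not in the CPCC table. Mesenchymal markers summed to 97.9 to 132.5 CPM in mESCs and to 12564 to 19508 CPM in CPCCs. All 4 that were tested rose, led by *Col1a1* (12.40) and *Acta2* (12.31), while *Col1a2* and *Tagln* are only in the CPCC table, at least 5302-fold and 8176-fold higher than the floor. In bulk samples, fewer cells of a type and less RNA per cell cannot be told apart.

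The promoters of 4 of the genes are shown. These genes had the largest falls among those with a sequence (*Dkc1*, *Tinf2*, *Pot1a*) or were the lowest and least certain of the set (*Tert*). *Pot1a* fell 2.62-fold, and *Rtel1*, which is not shown, fell 2.46-fold. RefSeq sequence of build GRCm38.p6 was found for 7 of the 9 genes, and not used here for *Terf1* and *Rif1*. Each line runs from 140 bases before the transcript start to 10 bases from the start on, 5′ to 3′ on the strand of the gene. Capitals mark a GC box (GGGCGG or its reverse complement CCGCCC), the motif of Sp1-type factors, or a cyclic AMP response element (CRE, TGACGTCA, the same on both strands), and the E-box of Myc-type factors (CACGTG, also the same on both strands) was searched as well. These motifs were chosen after the sequences and the values had been seen, and no matches of different motifs overlap.
Tert: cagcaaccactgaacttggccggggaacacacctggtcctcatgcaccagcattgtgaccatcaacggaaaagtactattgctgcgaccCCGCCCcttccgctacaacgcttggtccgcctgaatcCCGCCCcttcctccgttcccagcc
Dkc1: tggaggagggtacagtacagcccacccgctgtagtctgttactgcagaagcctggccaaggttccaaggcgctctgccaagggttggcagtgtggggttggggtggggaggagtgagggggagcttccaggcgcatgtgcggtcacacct
Tinf2: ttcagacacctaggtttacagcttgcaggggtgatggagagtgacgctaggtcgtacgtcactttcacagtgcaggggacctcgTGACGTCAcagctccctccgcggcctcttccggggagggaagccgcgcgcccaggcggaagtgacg
Pot1a: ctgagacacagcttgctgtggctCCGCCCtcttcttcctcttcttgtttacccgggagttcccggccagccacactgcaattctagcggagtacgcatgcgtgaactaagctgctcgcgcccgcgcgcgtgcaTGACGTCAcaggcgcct
The *Tert* sequence is chr13:73626771-73626920 on the plus strand and holds GC boxes that begin 51 and 14 bases before the start. The *Dkc1* sequence is chrX:75095714-75095863 on the plus strand and holds none of the 3 motifs. The *Tinf2* sequence is chr14:55681808-55681957 on the minus strand, with a CRE that begins 56 bases before the start. The *Pot1a* sequence is chr6:25809209-25809358 on the minus strand, with a GC box that begins 117 bases and a CRE that begins 7 bases before the start. In the window from 250 bases before to 50 bases from the start on, a GC box is present for 35.6% of the 27025 genes with a promoter, a CRE for 1.78% and an E-box for 7.09%. None of the 7 members with a sequence holds an E-box in that window. The genes with a sequence that is not shown, *Terf2*, *Acd* and *Rtel1*, hold no CRE in it. *Terf2* and *Rtel1* hold 1 GC box each, and *Acd* holds none. A match describes letters in the window and is not a measured binding site.

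Between mESCs and CPCCs, 7 of the 9 genes fell in CPCCs and none rose. *Dkc1* fell 5.57-fold, *Rif1* 5.39-fold and *Terf1* 4.99-fold, *Tinf2*, *Pot1a*, *Rtel1* and *Terf2* fell 2.15-fold to 3.22-fold, and *Tert* and *Acd* did not pass the test. The test was edgeR's quasi-likelihood test on counts rounded to whole numbers, with Benjamini-Hochberg adjustment over all genes tested and an adjusted p under 0.05 as the threshold for a call. The same test called 29.7% of all genes tested lower in CPCCs and 31.7% higher. The count of 0 higher members held by DESeq2 as well, and also at an unadjusted p under 0.05, since all 9 estimates lay below 0. The median log2 fold change of the 9 genes was -1.39, against 0.031 over all genes tested. In 8 of the 9, each CPCC library lay below each mESC library, which was so for 34.5% of all genes tested. The 3 libraries of a cell type come from clones of 1 cross, and each CPCC library also from its own differentiated, mixed culture. The p-values measure the spread between such libraries, clone and culture together. The CPCCs derive from those clones, but the fit could not pair them.

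**Figure D1:**
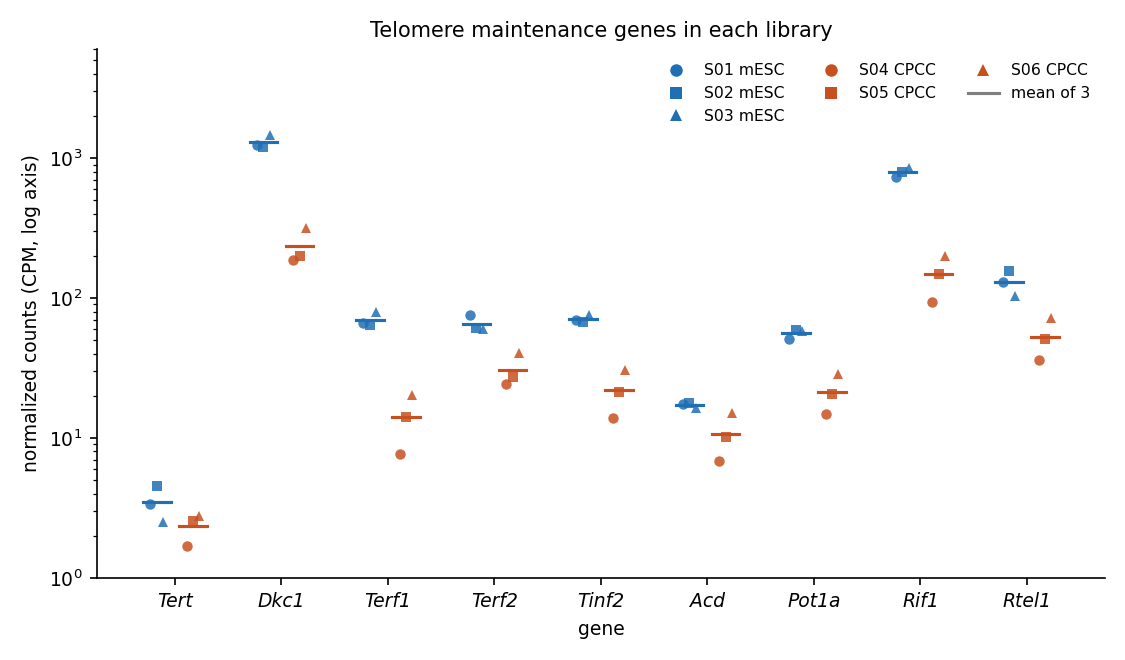
Normalized counts (CPM, log axis) of the 9 telomere maintenance genes in each of the 3 mESC libraries (blue) and the 3 CPCC libraries (orange), with the mean of each cell type as a bar. Only *Tert* overlaps between the cell types, and in each gene S04 is the lowest and S06 the highest CPCC library.

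*Tert* encodes the catalytic reverse transcriptase of telomerase (chromosome 13, 73627001 to 73649042 in the tables, whose gene ends can lie 1 base past the last base). It had 22, 31 and 17 counts across S01 to S03 and 17, 21 and 24 counts across S04 to S06. Scaled to the library, the mESC values were 3.40, 4.56 and 2.49 CPM, and the CPCC values 1.69, 2.55 and 2.75 CPM. The cell types overlapped, since S03 lay below S05 and S06. The mESC mean was 3.48 ± 1.04 CPM and the CPCC mean 2.33 ± 0.563 CPM (SD, n = 3 each). The log2 fold change was -0.58 (SE 0.50, 95% interval -1.71 to 0.55), with an adjusted p of 0.339 from edgeR's quasi-likelihood test. The interval holds a large fall, no change and a smaller rise. Summed over the 3 libraries, the 70 counts of mESCs have an exact 95% Poisson interval of 54.6 to 88.4 and the 62 counts of CPCCs one of 47.5 to 79.5, which cover counting error only. A difference in *Tert* was not detected, and its transcripts were counted in all 6 libraries.

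*Dkc1* encodes dyskerin, the pseudouridine synthase that binds box H/ACA RNAs, the telomerase RNA among them (chromosome X, 75095854 to 75109777). Its level was 1236, 1199 and 1469 CPM across S01 to S03, and 186, 199 and 315.5 CPM across S04 to S06. The highest CPCC library thus lay far below the lowest mESC library, and S06 stood above the other CPCC libraries. The mean went from 1301 ± 146 CPM (SD, n = 3) to 234 ± 71.2 CPM (SD, n = 3), a log2 fold change of -2.48 (SE 0.23, 95% interval -2.99 to -1.96, adjusted p = 2.78e-05 by edgeR's quasi-likelihood test). *Dkc1* shares 45 bases with the end of *Mpp1* on the other strand, and a small nucleolar RNA gene lies in an intron. The counts of *Tert* and *Dkc1* were also set against each other within each library, as a description only, since this pair was chosen after its different estimates had been seen. There were 364, 263 and 591 counts of *Dkc1* per count of *Tert* across S01 to S03 and 110.2, 78.2 and 115 across S04 to S06. Each CPCC library thus held fewer counts of *Dkc1* per count of *Tert* than any mESC library.

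Most other genes of telomerase and its assembly fell. Of the 13 genes of that list that were tested, 10 fell, none rose and 3 did not pass, with a median log2 fold change of -1.37. Across all genes tested 29.7% fell, against 76.9% here. After *Dkc1*, the largest fall was that of *Ruvbl2*, an ATPase that assembles the complex (log2 fold change -1.59, SE 0.21, adjusted p = 0.000231 by edgeR's quasi-likelihood test). The partners of dyskerin in the mature particle, named here after their values were seen, fell as well, *Nop10* by 1.37, *Nhp2* by 1.47 and *Gar1* by 1.54 on the log2 scale. The genes that did not pass besides *Tert* were *Pinx1*, an inhibitor of telomerase (0.04, with a sign that turned in 4 of 14 alternative settings), and *Tep1*, a telomerase-associated protein (0.19). *Terc*, the RNA template, is only in the mESC table, with 5, 9 and 16 counts across S01 to S03, at least 4.41-fold above the floor in CPCCs. Its RNA carries no stable poly(A) tail and these libraries were primed from poly(A), so the counts say little about its level.

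*Terf1* encodes TRF1, which binds double-stranded telomere repeats and helps forks pass through them (chromosome 1, 15805646 to 15844053). It had 66.7, 64.1 and 79.0 CPM across S01 to S03 and 7.65, 14.1 and 20.4 CPM across S04 to S06. The CPCC libraries spanned a wide range, with S04 lowest, yet all lay under the mESC libraries. The mESC mean was 69.9 ± 7.93 CPM, the CPCC mean 14.0 ± 6.37 CPM (SD, n = 3 each), and the log2 fold change was -2.32 (SE 0.33, 95% interval -3.06 to -1.58, adjusted p = 0.000312 by edgeR's quasi-likelihood test). *Terf2* encodes TRF2, the second repeat-binding subunit, which shapes the end into a loop and holds back damage signalling (chromosome 8, 107069402 to 107096546). Its levels were 75.5, 60.9 and 60.4 CPM across S01 to S03 and 24.2, 27.2 and 40.5 CPM across S04 to S06. The groups were apart, and S06 came closest to the mESCs. The mean fell from 65.6 ± 8.60 CPM (SD, n = 3) to 30.6 ± 8.67 CPM (SD, n = 3), a log2 fold change of -1.10 (SE 0.23, adjusted p = 0.00313 by the same test), the smallest among the 7 falls.

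The counts of these 2 repeat-binding subunits were also set against each other. Per count of *Terf2* there were 0.883, 1.05 and 1.31 counts of *Terf1* across S01 to S03 and 0.317, 0.518 and 0.504 across S04 to S06. A ratio within a library does not depend on the scaling of libraries, and no CPCC library reached the lowest mESC library. The log2 difference was -1.29, with p = 0.10 in a two-sided exact permutation test, the smallest p that 3 against 3 libraries allow.

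*Tinf2* encodes TIN2, which bridges TRF1, TRF2 and TPP1 (chromosome 14, 55679080 to 55681818). Its levels were 69.4, 67.7 and 75.6 CPM across S01 to S03 and 13.8, 21.5 and 30.8 CPM across S04 to S06. The mESC libraries were close together and the CPCC libraries spread out below them. The log2 fold change was -1.69 (SE 0.28, 95% interval -2.32 to -1.06, adjusted p = 0.000783 by edgeR's quasi-likelihood test), from 70.9 ± 4.19 CPM (SD, n = 3) to 22.0 ± 8.52 CPM (SD, n = 3). As the tables place them, *Tinf2* and its neighbour *Gmpr2* on the opposite strand do not overlap, while longer *Tinf2* transcripts in GENCODE M21 share 1540 exon bases with it.

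*Acd* encodes TPP1, the subunit that recruits telomerase to the end and pairs with POT1 (chromosome 8, 105698155 to 105701229). It had 17.5, 17.8 and 16.2 CPM across S01 to S03 and 6.86, 10.2 and 15.1 CPM across S04 to S06. No CPCC library reached the mESC range, but S06 came within about 1 CPM of S03. The means were 17.2 ± 0.822 CPM (SD, n = 3) and 10.7 ± 4.16 CPM (SD, n = 3). The log2 fold change was -0.68 (SE 0.32, 95% interval -1.41 to 0.048), and the adjusted p of 0.0942 by edgeR's quasi-likelihood test missed the threshold. Without S06 it was -1.01 with an adjusted p of 0.0241, and *Acd* then counted as lower, while without S04 it was -0.42 with an adjusted p of 0.209. As the tables place them, *Acd* and *Carmil2* on the opposite strand share 12 bases, against 1208 exon bases in GENCODE M21, and *Carmil2* had 5 to 22 counts per library.

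*Pot1a* encodes a POT1 protein that binds the single-stranded overhang, and the mouse has a paralog, *Pot1b* (chromosome 6, 25743735 to 25809227 for *Pot1a*). The level of *Pot1a* was 51.3, 58.7 and 57.9 CPM across S01 to S03 and 14.8, 20.7 and 28.5 CPM across S04 to S06. Each CPCC library was well below the mESC libraries. The log2 fold change was -1.39 (SE 0.25, 95% interval -1.97 to -0.82, adjusted p = 0.00137 by edgeR's quasi-likelihood test), from 56.0 ± 4.07 CPM to 21.4 ± 6.88 CPM (SD, n = 3 each). *Pot1b* fell from 10.8 ± 2.36 CPM to 5.11 ± 0.0924 CPM (SD, n = 3 each), with a log2 fold change of -1.07 (SE 0.33, adjusted p = 0.0180 by the same test), a call that was lost without S02 (adjusted p = 0.0854). The counts of *Pot1a* per count of *Pot1b* overlapped between the cell types, at 5.82, 4.38 and 5.74 across S01 to S03 and 2.92, 3.98 and 5.66 across S04 to S06 (log2 difference -0.39, p = 0.20, two-sided exact permutation test). How reads common to these paralogs were counted is not given in the sources used here, so their split is uncertain.

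Of the 7 shelterin genes, 6 fell, none rose and *Acd* did not pass, with a median log2 fold change of -1.10. Across all genes tested 29.7% fell, against 85.7% here. The remaining subunit gene, *Terf2ip*, encodes RAP1, which binds TRF2. It fell least, from 69.5 ± 6.01 CPM to 50.4 ± 4.54 CPM (SD, n = 3 each), a log2 fold change of -0.46 (SE 0.17, adjusted p = 0.0388 by edgeR's quasi-likelihood test), and this call was lost in 7 of 14 alternative settings (adjusted p up to 0.146). When each gene was expressed as CPM per kilobase of its longest coding sequence and as a share of the 7, *Terf1* held 21.3 ± 1.95% of the sum in mESCs and 9.55 ± 2.52% in CPCCs (SD, n = 3 each). *Terf2ip* held 22.7 ± 1.93% in mESCs and 39.0 ± 7.53% in CPCCs. *Tinf2* went from 21.7 ± 0.861% to 15.2 ± 2.74% and *Acd* from 5.30 ± 0.366% to 7.45 ± 1.28%, in each case without overlap of libraries. The share of *Terf2* was 15.6 ± 2.37% and 16.6 ± 0.880%. With summed exons in place of coding length, the share of *Terf1* was 21.3% and 9.59% and that of *Terf2ip* 19.7% and 34.1%. These shares sum to a whole, so 1 that is larger makes the others smaller, and they were not tested.

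**Figure D2:**
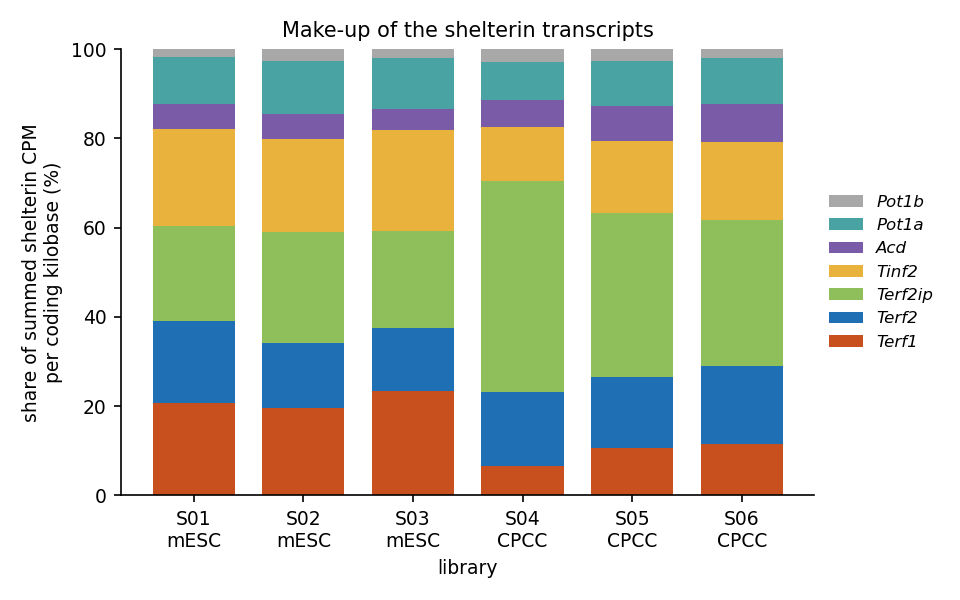
Share (%) of each of the 7 shelterin genes in their summed CPM per kilobase of coding length, as stacked bars, 1 bar per library. The *Terf1* part at the base of each bar is 19.7% to 23.5% in the mESC libraries and 6.68% to 11.4% in the CPCC libraries, and the *Terf2ip* part is 21.3% to 24.9% and 32.8% to 47.4%.

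*Rif1* encodes a large protein that steers the repair of DNA ends and the timing of replication (chromosome 2, 52072837 to 52126769). Its levels were 736, 800.05 and 851 CPM across S01 to S03 and 94.4, 149 and 200.2 CPM across S04 to S06. All CPCC libraries lay far under the mESC libraries. The mean fell from 796 ± 57.4 CPM (SD, n = 3) to 148 ± 52.9 CPM (SD, n = 3), a log2 fold change of -2.43 (SE 0.26, 95% interval -3.02 to -1.84, adjusted p = 6.51e-05 by edgeR's quasi-likelihood test). *Rtel1* encodes a helicase that unwinds telomere loops and G-quadruplexes (chromosome 2, 181319724 to 181356617). It had 131, 156 and 104 CPM across S01 to S03 and 36.3, 50.9 and 71.5 CPM across S04 to S06. Here the mESC libraries also differed among themselves, yet the lowest of them, S03, was above S06. The log2 fold change was -1.30 (SE 0.27, 95% interval -1.90 to -0.70, adjusted p = 0.00257 by the same test), from 130.1 ± 26.1 CPM to 52.9 ± 17.7 CPM (SD, n = 3 each).

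**Figure D3:**
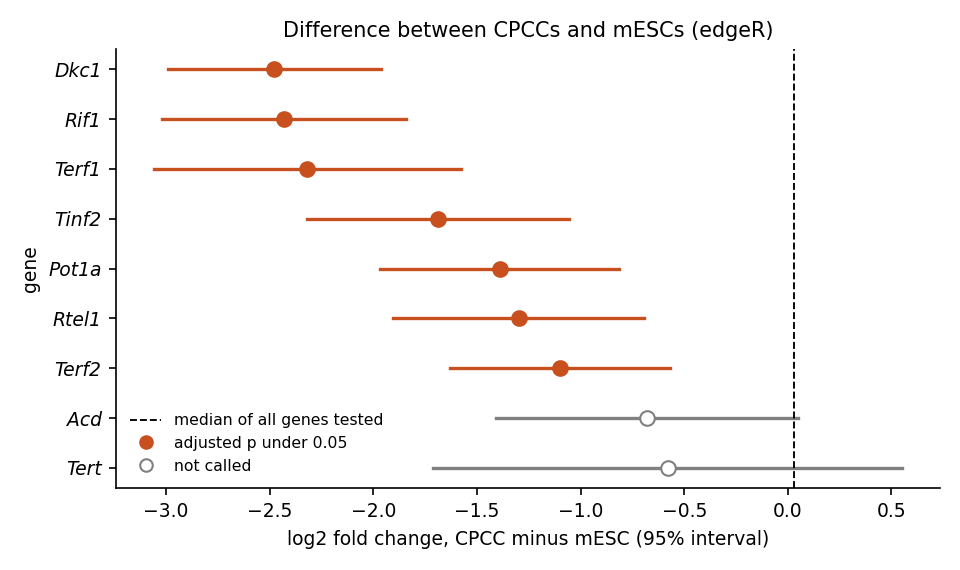
Log2 fold change of each gene, CPCC minus mESC, from edgeR with its 95% interval, ordered from the largest fall (top) to the smallest. Filled points passed an adjusted p of 0.05. The intervals of *Acd* and *Tert* reach above 0, and the dashed line marks the median of all genes tested, 0.031.

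Set against each other per kilobase, the members spanned a wide range of levels. Summed GENCODE M21 exons had been chosen as the length, but for *Tinf2* and *Acd* they are longer than the whole gene in the tables, so the order given here uses the longest coding sequence, a change made after the data were seen. In mESCs the order was *Dkc1* (852 CPM per coding kilobase), *Rif1* (109), *Tinf2* (56.4), *Terf1* (55.4), *Terf2* (40.4), *Rtel1* (35.9), *Pot1a* (29.1), *Acd* (13.8) and *Tert* (1.03). Among neighbours in this order, the libraries of *Tinf2* and *Terf1*, of *Terf2* and *Rtel1*, and of *Rtel1* and *Pot1a* overlapped, and the others were apart. In CPCCs the order was *Dkc1* (153 CPM per coding kilobase), *Rif1* (20.3), *Terf2* (18.8), *Tinf2* (17.5), *Rtel1* (14.6), *Pot1a* (11.13), *Terf1* (11.12), *Acd* (8.59) and *Tert* (0.692). Here neighbours overlapped from *Rif1* down to *Acd*, so that only *Dkc1* at the top and *Tert* at the bottom stood apart. Among the 11901 genes tested that have a coding length, *Dkc1* was at the percentile 98.5 of level per coding kilobase in mESCs and 89.2 in CPCCs, and *Tert* at 7.16 and 2.33. With summed exons, 4 of the 36 pairs of members changed order in each cell type, and *Dkc1*, *Rif1* and *Tert* kept their places.

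Among the CPCC libraries, all 9 members were lowest in S04, intermediate in S05 and highest in S06. That order was noticed in the values, and 24.9% of all genes tested showed it. The median difference of the members from the mean log2 CPM of mESCs was -1.92 in S04, -1.43 in S05 and -0.97 in S06. The same order was seen in 15 of 15 genes of a proliferation list and in 4 of 5 mESC markers, *Sox2* being the exception. The summed mESC markers lay at -5.97, -4.25 and -3.80 across S04 to S06 on that scale and the summed proliferation genes at -2.80, -1.69 and -1.32. The part of either in the levels of the members was not tested.

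**Figure D4:**
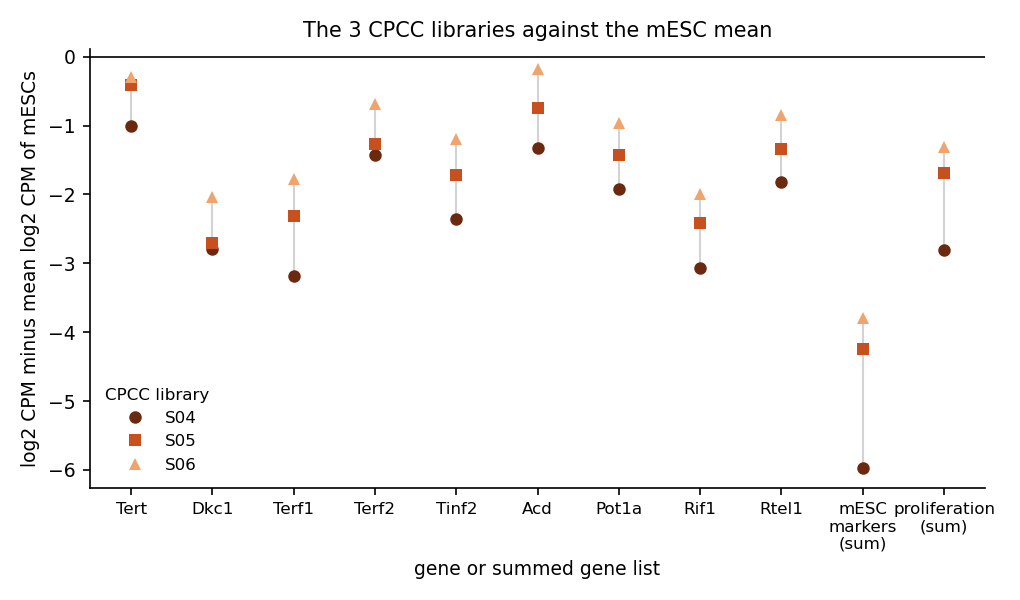
Log2 CPM of each CPCC library minus the mean log2 CPM of the 3 mESC libraries, for each of the 9 genes and for the sums of the mESC marker and proliferation lists. In every column S04 is lowest and S06 highest, and the members lie between -3.19 (*Terf1* in S04) and -0.18 (*Acd* in S06).

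The proliferation genes also differed between the cell types. Of 15, 13 fell, none rose and 2 did not pass, with a median of -1.81. That is 86.7% lower, against 29.7% of all genes tested. Named after their values were seen, those that did not pass were *Mki67* and *Aurkb*. By edgeR's quasi-likelihood test they had -0.46 (adjusted p = 0.367) and -0.77 (adjusted p = 0.148). *Mki67* had 376, 440 and 400 CPM across S01 to S03 and 100.4, 337 and 445 CPM across S04 to S06. The largest falls were those of *Mcm3* (-2.83, SE 0.37, adjusted p = 0.000213 by edgeR's quasi-likelihood test) and *Mcm5* (-2.60, SE 0.46, adjusted p = 0.00120), subunits of the replicative helicase. Their summed level was 7286 to 7665 CPM in mESCs and 1079, 2339 and 3024 CPM across S04 to S06.

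Around the members, a wider list of 53 telomere gene symbols was examined, with *Obfc1* and *Stn1* naming the same gene, and 51 were tested. Of these, 33 fell, 5 rose and 13 did not pass, with a median log2 fold change of -1.03. That is 64.7% lower and 9.80% higher, against 29.7% and 31.7% of all genes tested. In 34 of the 51, each CPCC library lay below each mESC library, which was so for 34.5% of all genes tested. This list joins 6 groups of genes, telomerase and shelterin among them, and the counts of each group below include its members.

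After telomerase, the complementary strand is filled in by the CST complex and DNA polymerase alpha. Of 7 tested genes of this group, 5 fell and 2 did not pass, with a median of -1.38. The share that fell was 71.4%, against 29.7% of all genes tested. *Pola1*, the catalytic subunit of DNA polymerase alpha, fell from 136 ± 19.3 CPM to 22.8 ± 9.92 CPM (SD, n = 3 each), a log2 fold change of -2.57 (SE 0.30, adjusted p = 0.000102 by edgeR's quasi-likelihood test). *Prim1*, a primase subunit, fell by 2.02 (SE 0.35, adjusted p = 0.00105). The genes that did not pass were both from the CST complex itself, *Stn1* (0.16) and *Ten1* (-0.14), while the remaining CST gene, *Ctc1*, fell by 0.67. These 3 were named after their values were seen. *Obfc1*, an older symbol of *Stn1*, is in neither table.

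Among 11 helicases and nucleases that act at telomeres, *Rtel1* included, 7 fell, 1 rose and 3 did not pass, with a median of -1.41. That is 63.6% lower and 9.09% higher, against 29.7% and 31.7% of all genes tested. *Exo1*, the exonuclease that resects ends, fell from 147 ± 15.0 CPM to 26.6 ± 10.9 CPM (log2 fold change -2.47, SE 0.31, adjusted p = 0.000151 by edgeR's quasi-likelihood test), and *Blm*, a RecQ helicase, from 101 ± 1.41 CPM to 27.1 ± 11.3 CPM (-1.90, SE 0.30, adjusted p = 0.000574), each with n = 3. *Wrn*, the RecQ helicase of Werner syndrome, rose. It had 4.63, 6.47 and 8.04 CPM across S01 to S03 and 19.7, 14.7 and 9.97 CPM across S04 to S06, a log2 fold change of 1.21 (SE 0.36, adjusted p = 0.0167 by the same test). The call for *Wrn* was lost without S01 (adjusted p = 0.0639).

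Of 13 genes of end protection and damage signalling, *Rif1* included, 8 fell, 2 rose and 3 did not pass, with a median of -0.998. As shares, 61.5% fell and 15.4% rose, against 29.7% and 31.7% of all genes tested. After *Rif1* the largest fall was that of *Xrcc5*, the Ku80 subunit that holds DNA ends, from 257 ± 36.8 CPM to 51.1 ± 17.7 CPM (log2 fold change -2.33, SE 0.28, adjusted p = 0.000119 by edgeR's quasi-likelihood test, n = 3 each). The genes that rose encode the tankyrases, which modify TRF1 in human cells. *Tnks* had 9.73, 14.4 and 17.3 CPM across S01 to S03 and 67.9, 62.5 and 61.8 CPM across S04 to S06, a rise of 2.21 on the log2 scale (SE 0.24, adjusted p = 7.09e-05). *Tnks2* rose by 0.62 (SE 0.18, adjusted p = 0.0127, same test), a call that was lost without S01 (adjusted p = 0.0598) and without S02 (adjusted p = 0.0602).

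Of 9 genes of telomeric chromatin and repeat-binding factors, 4 fell, 2 rose and 3 did not pass, with a median of -0.60. The shares were 44.4% lower and 22.2% higher, against 29.7% and 31.7% of all genes tested. *Daxx* and *Atrx*, which deposit histone H3.3 at telomeres, fell by 1.14 (SE 0.23, adjusted p = 0.00223 by edgeR's quasi-likelihood test) and by 1.03 (SE 0.14, adjusted p = 0.000216) on the log2 scale. *Suv39h1*, a histone methyltransferase of heterochromatin, rose from 33.6 ± 7.19 CPM to 138 ± 17.3 CPM (SD, n = 3 each), by 2.04 (SE 0.21, adjusted p = 5.16e-05, same test). *Hmbox1*, which binds telomere repeats directly, rose by 0.85 (SE 0.27, adjusted p = 0.0208), and its call was lost without S02 (adjusted p = 0.0812) and without S03 (adjusted p = 0.0657).

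Of 7 transcription factors known to bind the *Tert* promoter, 4 fell, 1 rose and 2 did not pass, with a median of -0.66. In this short list 57.1% fell and 14.3% rose, against 29.7% and 31.7% of all genes tested. *Klf4* fell from 396 ± 15.9 CPM to 51.7 ± 19.9 CPM (log2 fold change -2.94, SE 0.27, adjusted p = 2.56e-05 by edgeR's quasi-likelihood test), and *Mycn* from 94.99 ± 46.1 CPM to 23.7 ± 5.60 CPM (-2.00, SE 0.34, adjusted p = 0.000908), each with n = 3. *Myc* rose, from 3.71, 3.97 and 0.439 CPM across S01 to S03 to 33.7, 22.8 and 20.6 CPM across S04 to S06 (log2 fold change 3.25, SE 0.57, adjusted p = 0.00111, same test). *Tert* itself, described above, did not pass the test.

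**Figure D5:**
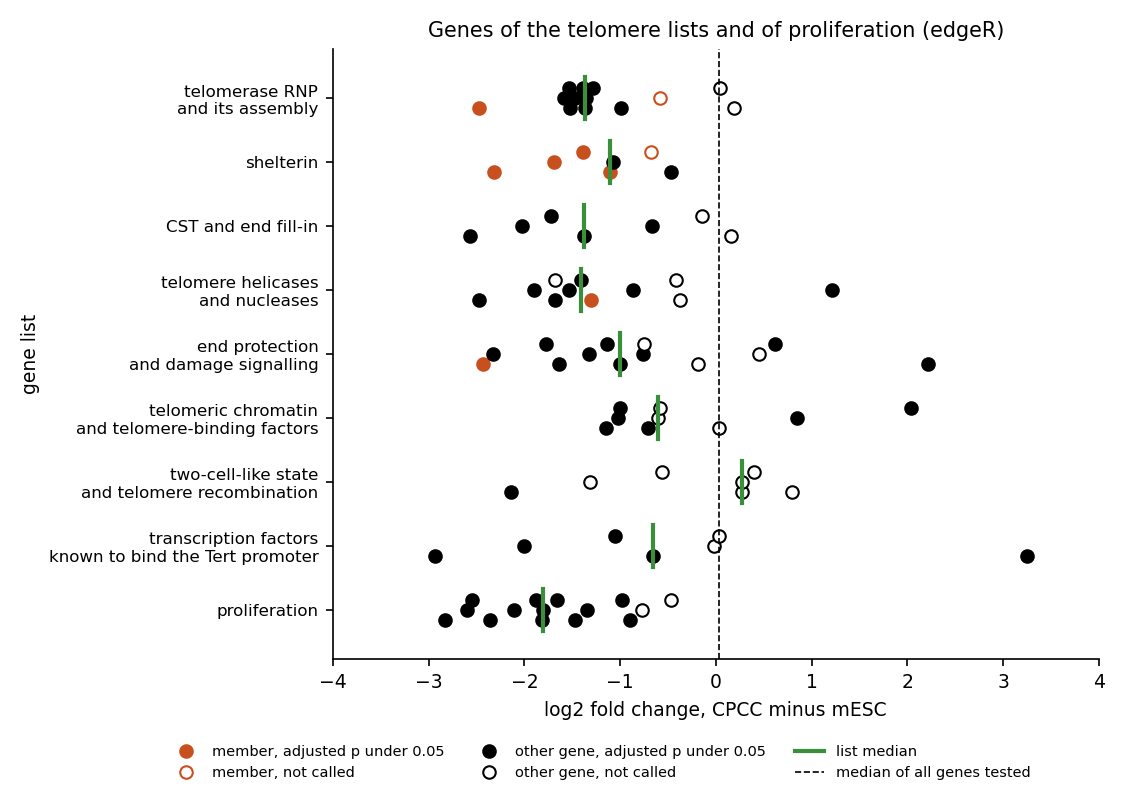
Log2 fold change, CPCC minus mESC, of every tested gene in the 8 telomere lists and the proliferation list. Filled points passed an adjusted p of 0.05 in edgeR, members are orange, green bars are list medians and the dashed line is the median of all genes tested (0.031). The points of 8 of the 9 lists have medians below 0, and the two-cell-like list, described among the other observations, has a median of 0.27.

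The genes whose pattern over the 6 libraries was most like that of *Dkc1*, the member with the largest fall, were *BC052688*, *Alkbh2* and *Zfp292*, each with a Pearson r of 0.999 on log2 CPM. The libraries form 2 clusters by cell type, and 208 genes had an r over 0.99, so this is a description only. *Alkbh2*, a DNA repair dioxygenase, had 16.9 to 22.1 CPM in mESCs and 2.39 to 4.24 CPM in CPCCs. No member had a log2 fold change above 0, so no such genes were sought for a rise.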

How the data were processed

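Libraries were made by the authors with the SMART-Seq v4 and Nextera XT kits from 3 mESC and 3 CPCC samples, and the deposited values are their estimated counts per gene, without normalization, in 1 table per cell type. The submitters' processing notes name STAR 2.7 and the mouse build mm10. For its single-cell count tables the paper names STAR 2.7 within the Partek Flow software. The counter behind the bulk values and its strand setting are not given in the sources used here. From 17.9% to 21.5% of a library's values hold fractions, and genes under 10 counts over the 3 libraries of a table are not in it. Columns were assigned to a cell type by their table and could not be matched to a replicate.

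Counts were rounded. Of 13001 genes in both tables, edgeR's filterByExpr removed 530. The cell types were compared in edgeR 4.0.16 (R 4.3.3) by its quasi-likelihood test with TMM and Benjamini-Hochberg adjustment, and no covariate. Its standard error is the log2 fold change over the square root of F. Ratios within libraries were compared by exact permutation tests. Levels per kilobase used the longest coding sequence in GENCODE M21, which 95.4% of the genes tested have, in place of the summed exons first planned. Settings tried were DESeq2 1.42.0, upper-quartile factors, library totals without TMM, whole-table library sizes, no filter, at least 10 counts per library, missing genes at 0 or 3 counts, and each library left out. Figures were drawn with matplotlib 3.10.9.

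The members and the gene lists were chosen with earlier results of these data known. Named genes are the 9 members, the 2 largest falls and rises past the threshold in each list, genes of a list in 1 table only, and the 3 genes most like the member with the largest fall. Other genes are said to be named after their values were seen, and overlapping genes are named for their overlap. The result of 1 gene of the two-cell-like list is not reported here.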

Additional observations from a re-analysis of the deposited data

How the results depend on the processing

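The 7 members that fell and the absence of a rise held under all 14 settings for the same 7 genes, and *Acd* joined them without S06. The median log2 fold change of the members ranged from -1.17 (without S04) to -1.65 (without S06). Over all genes 6536 to 9011 were called, against 7656, and the median of all genes was 0.166 rather than 0.031 with 0 counts for a gene that a table lacks. Of the wider list, 29 to 34 genes were called lower, against 33. Leaving out each library gave 3 (without S01 or S02) to 6 (without S04) genes called higher, against 5, where fewer samples entered the fit. Of 52 named genes that were tested, those named later included apart from *Mki67* and *Aurkb*, 46 kept their call in every setting that tested them. The filter of 10 counts per library left out 6 genes. The calls that changed, for *Acd*, *Pot1b*, *Terf2ip*, *Wrn*, *Tnks2* and *Hmbox1*, are given with those genes. *BC052688* moved from -5.35 to -6.01 without S06. No called gene turned direction. Of the genes not called, *Pinx1* turned to -0.027 with missing genes at 3 counts and ranged from -0.12 to 0.28 with each library left out. *Zscan4a* ranged from -0.59 to 0.76, *Zscan4c* from -0.75 to 0.75, *Zscan4d* from -1.15 to 1.30 and *Zscan4f* from -0.77 to 1.30, each lowest without S06. The log2 difference of the *Terf1* to *Terf2* ratio stayed between -1.43 and -1.06. *Tert* had the lowest counts of the members, and its counting error is given with it. Coding lengths from RefSeq proteins were not run. No paired analysis was possible because the columns carry no replicate numbers.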

Other observations

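Genes of the two-cell-like state, a rare state of mESC cultures in which the *Zscan4* family is active and telomeres lengthen by recombination, were examined as a list of 11, of which 7 were tested. By edgeR's quasi-likelihood test none rose, also at an unadjusted p under 0.05, and the median log2 fold change was 0.27. The *Zscan4* genes, named after their values were seen, had few counts and stood apart in a single CPCC library. *Zscan4c* had 20, 12 and 30 counts across S01 to S03 and 10, 22 and 66 counts across S04 to S06. *Zscan4f* had 12, 18 and 11 counts across S01 to S03 and 7, 14 and 72 across S04 to S06. *Zscan4a* reached 58 counts and *Zscan4d* 52 counts in S06, against 3 to 30 counts of either in the other libraries, and *Zscan4b*, which did not pass the filter, had 45 counts in S06 and 2 to 7 elsewhere. These genes are near-identical copies whose reads may have been split or shared in counting, so their values are not independent of each other. *Tcstv3*, with 1, 10 and 11 counts across S04 to S06, and *Zfp352*, with 6, 4 and 4, are only in the CPCC table, and *Zscan4e* is in neither. S06 was also the CPCC library with the highest level of all 9 telomere maintenance genes. The same held for all 15 proliferation genes. Of all genes tested, 24.9% increased in order from S04 through S05 to S06. A link between these patterns was not tested.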
